A study of Arabidopsis thaliana with 3 samples.

Results

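The comparison described here set Arabidopsis thaliana plants thawed for 3 h after a freeze against cold-acclimated plants that had not been frozen. It used 2 of the 3 arrays of the series, 1 array per group, and both of its members were taken by their titles. The ATH1 array carries 22746 Arabidopsis probe sets, short oligonucleotide groups that each report 1 transcript or a few similar ones, and 16779 of them were measured on at least 1 of the 2 arrays. Measured means a signal at or above 16.1, the 30th percentile of all signals and the floor used throughout: lower signals were set to it before a log2 ratio was taken.

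All plants were the wild-type accession Col-0, raised to growth stage 1.14 at 20 °C under 9 h of light and 15 h of dark and then kept for 11 days at 4 °C in the same cycle. Aerial parts of the control were harvested at hour 5 of the light period, with no freezing. Freezing of the remaining plants began when the light period ended and lasted 20 h, and the labels give its temperature as 6.0 °C without a minus sign. Darkness at 20 °C followed, lasting 3 h in the group described here and 24 h in the third group. The 3 h harvest therefore fell at hour 8 of the daily cycle, 23 h after the last light. Freezing, warming from 4 to 20 °C, darkness and the hour of harvest all differ between the arrays and cannot be told apart. The sources used here do not give how many plants went into an array, and each array is labelled as replicate 3 of its group.

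During cold acclimation a plant builds up dehydrin and other protective proteins, changes its membranes and accumulates sugars, and these preparations let it survive ice between its cells. Thawing then brings water back to dehydrated, partly damaged cells. Calcium entry, wound hormones such as jasmonate, protein turnover, membrane repair and cell wall remodelling are well-known early responses to such injury in leaves, and calmodulin-like proteins are among the best-known readers of the calcium signal.

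With 1 array per group no test is possible, and no value here has a replicate error. The one measure of error within the arrays came from 77 genes that carry 2 probe sets: the ratios of the 2 probe sets differed with an SD that corresponds to 0.33 on the log2 scale for 1 probe set, and 4 of the 77 pairs differed by 2-fold or more. That spread holds probe error only, and no difference between plants. A threshold of 2-fold was used to describe genes, and a smaller difference is called within 2-fold. In this bulk tissue, fewer cells of a type and less RNA per cell cannot be told apart.

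A signal at least 2-fold above that of the control was read at 3 h from 1024 probe sets (6.1%), and 666 (3.97%) were lower by 2-fold or more. The lead of higher over lower widened with size: 4-fold or more was reached by 324 (1.93%) on the higher side and by 32 (0.191%) on the lower. The median log2 ratio was −0.13, with quartiles of −0.41 and 0.18, so the typical probe set was slightly lower while the upper tail was long: the central 95% of ratios ran from −1.16 to 1.76. Of the 1024 higher probe sets, 149 lay below the floor on the control, and of the 666 lower ones 102 lay below it at 3 h. The folds of those are lower bounds, written below as "at least".

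**Figure D1:**
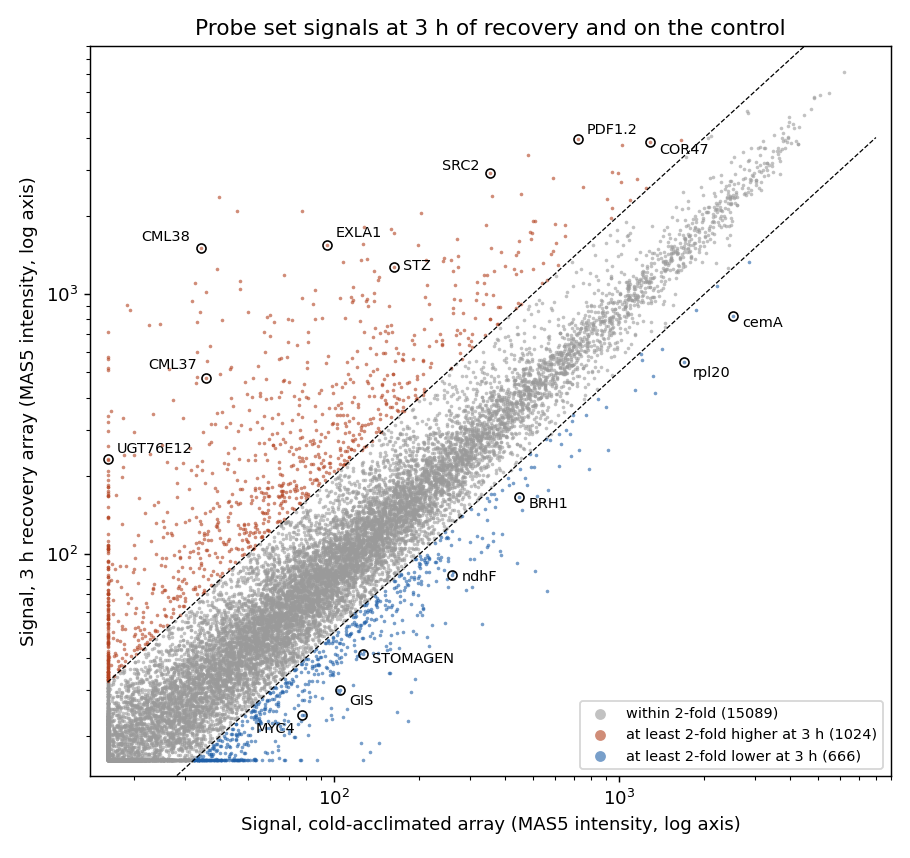
Signal of each of 16779 measured Arabidopsis probe sets on the cold-acclimated array (x axis) and the 3 h recovery array (y axis), both MAS5 intensities on log axes with signals below 16.1 drawn at 16.1. Dashed lines mark 2-fold. Red points are the 1024 probe sets at least 2-fold higher at 3 h and blue points the 666 at least 2-fold lower. The red points reach farther from the diagonal than the blue ones, and labelled genes include CML38, the named gene with the largest ratio.

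These counts varied with brightness. In the dimmest of 4 equal classes of measured probe sets, formed by the brighter of the 2 signals, 1.05% were 2-fold higher and 1.76% lower. In the brightest class, with signals from 186.2 upward, 12.6% were 2-fold higher and 3.46% lower. The scale of the arrays also bears on the split. The arrays had equal trimmed means, but all 18 bacterial control probe sets that are added to the hybridization mix read higher at 3 h, with a median of 1.66-fold. Scaling to them moves the log2 ratio of a probe set above the floor on both arrays by −0.73, less where the floor holds a signal, and leaves 438 probe sets 2-fold higher and 5310 lower, so every direction below is relative to the bulk of the transcripts. The 3′ to 5′ ratio of the actin control was 2.55 on the control and 2.21 at 3 h, and that of the GAPDH control was 1.01 and 0.890. Leaf markers were present and the root marker was dim: Rubisco activase (RCA), a leaf mesophyll gene, read 3216 and 2990, the guard cell factor FMA 46.7 and 38.8, and the root glucosidase PYK10 15.8 and 18.6, close to the floor. CLV3, the stem cell peptide of the shoot meristem, was below the floor on both arrays.

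A gene was taken from each probe set that the platform annotation pairs with 1 gene, which gave 9259 measured genes. Past 2-fold were 531 (5.73%) on the higher side and 360 (3.89%) on the lower. The reference gives a name beyond a locus code to 1258 of them, with 83 higher (6.6%) and 45 lower (3.58%), near the shares of all genes. These 128 named genes carry most of the account below. They were sorted into roles after their values were seen, so a count within a role covers only genes past 2-fold and is to be read against 83 higher of 128. Members of families are read against the shares of all genes. A member below the floor on the control counts as measured only through its 3 h signal and could not count as lower. The reverse holds for a member below the floor at 3 h. The 35 lists fixed by locus code, such as the cold regulon list, hold 610 places, of which 90 are on the annotation. Each of those lists therefore stands for a part of its pathway only. The log2 median of all 9259 genes was −0.14, the value to set family medians against.

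Most of the largest ratios belong to genes that the files list under a locus code. Of the 40 highest ratios among genes above the floor on both arrays, 35 are listed so, and of the 40 lowest 35 as well. A few of these have a name among the synonyms of the reference and are described by role below, and no role is given to the others. AT1G15010 had the largest ratio of all, at 39.5 and 2372, a 60.05-fold difference, followed by CML38. AT2G27080 read 32.7 and 1107, a 33.9-fold difference. The lower side was milder: the 3 lowest were AT3G15570 at 182.5 and 22.8 (8.001-fold lower), AT3G44450 at 560.1 and 71.97 (7.78-fold lower) and AT5G44680 at 134.1 and 17.39 (7.71-fold lower).

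**Figure D2:**
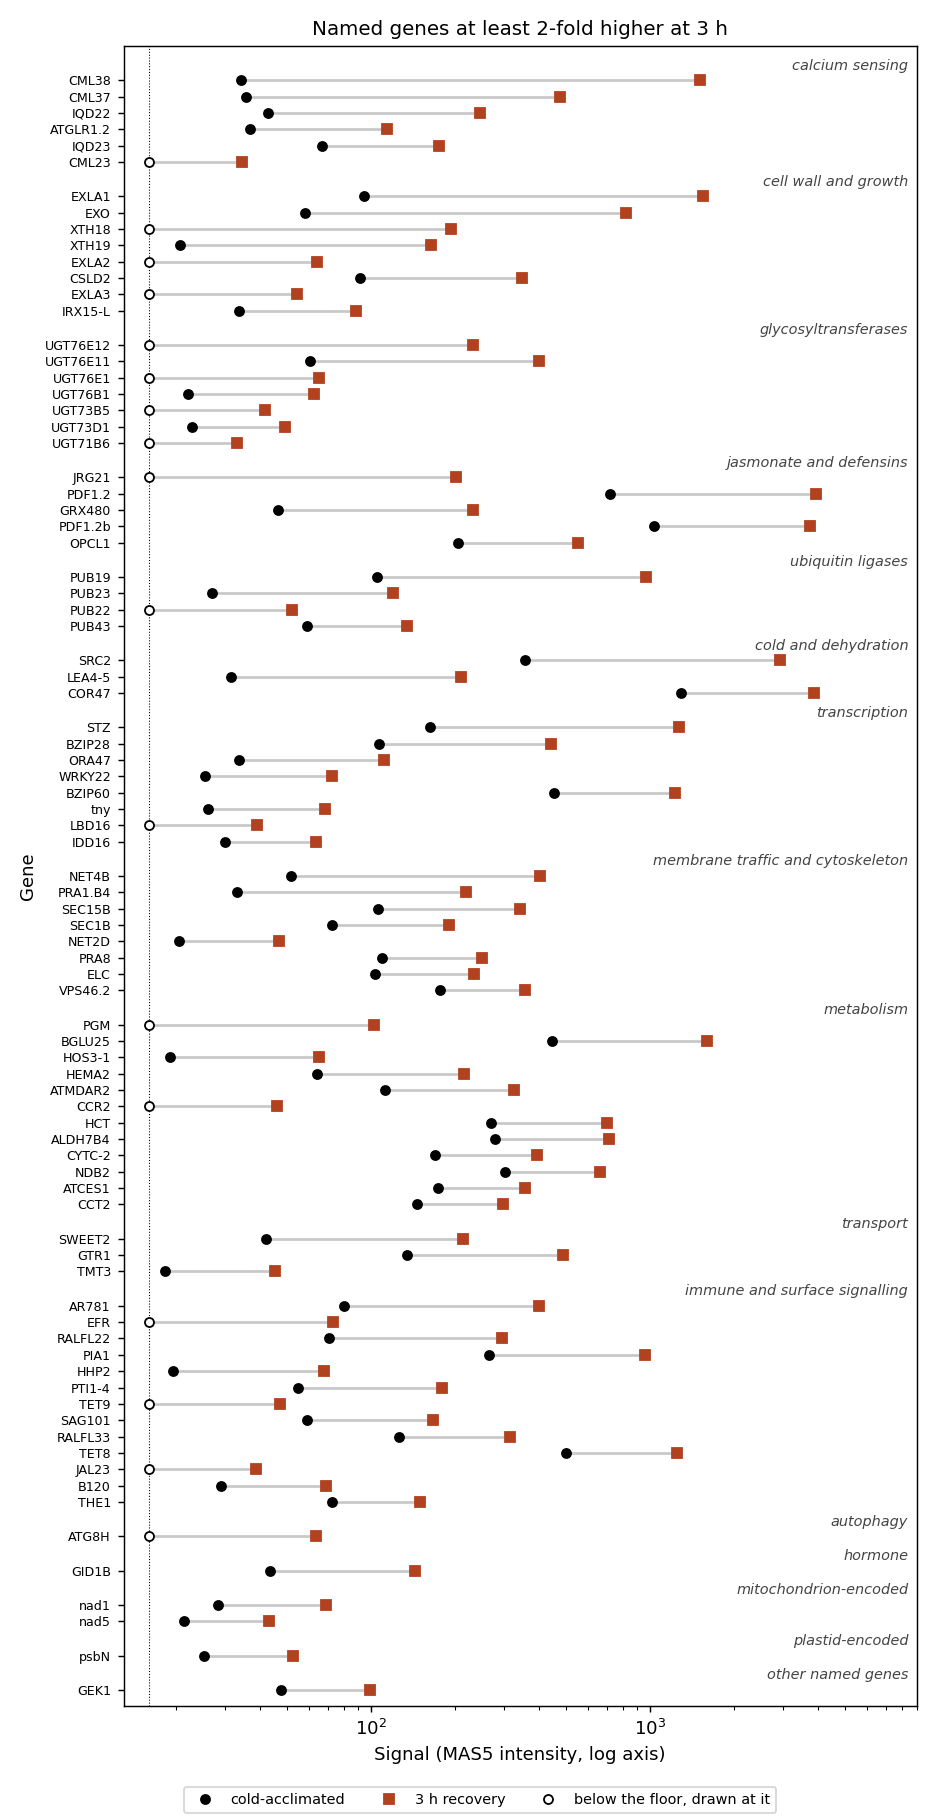
Signal on a log axis of the 83 named genes at least 2-fold higher at 3 h, on the cold-acclimated array (black circles) and at 3 h (red squares), grouped by role. Open circles are control signals below the floor of 16.1, drawn at the dotted line that marks it. The widest gaps belong to CML38, CML37, EXLA1, EXO and UGT76E12, and the membrane traffic genes show narrower gaps.

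Calcium readers were prominent at 3 h. CML38, a calmodulin-like calcium sensor, read 34.1 on the control and 1507 at 3 h, a 44.2-fold difference and the largest of any named gene. Its relative CML37 read 35.7 and 477, which is 13.4-fold. Of 8 measured calmodulin-like genes 4 were 2-fold higher and 0 lower, and the family median was 0.71, or −0.02 when scaled to the hybridization controls. Only 6 of the 8 were above the floor on the control, and 2 of the 4 higher ones count as measured only through the 3 h array. The median therefore depends on the floor: it was 1.66 with a floor at the 15th percentile and 0.19 with one at the 45th. The other members past 2-fold were AT1G76640, listed as CML39 in the reference, at 1.38 and 70.0 (at least 4.35-fold), and CML23 at 1.497 and 34.5 (at least 2.14-fold). CML41 went the other way without passing 2-fold, at 65.0 and 33.1, and CML42, CML30 and CML43 lay within 2-fold.

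Calmodulin-binding IQ-domain proteins split. IQD22 read 42.6 and 245.3, a 5.75-fold difference, and IQD23 66.7 and 175.5, a 2.63-fold difference. Their relative IQD21 was 2.27-fold lower, at 111.1 and 49.0, and IQD24 nearly so, at 82.3 and 42.6. Over the 10 measured members the median was −0.28. Among 7 glutamate receptor-like channels, which pass calcium into cells, ATGLR1.2 alone passed 2-fold, at 36.99 and 113.8.

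Of the named genes past 2-fold, 14 were sorted to cell surface and immune signalling, and 13 of them were higher. In the shorter salicylate and immunity list 1 of 2 measured genes passed 2-fold. EFR, the receptor of a bacterial elongation factor peptide, was below the floor on the control (1.65) and read 73.1 at 3 h, at least 4.54-fold higher. THE1, a receptor kinase that monitors the cell wall, read 72.5 and 149.4. RALF peptides, small secreted signals that act on receptors of the THE1 family, differed among themselves. RALFL22 read 70.5 and 294.3 and RALFL33 read 125.8 and 314.8, while RALFL34 was at 359.9 and 221.2, within 2-fold on the lower side.

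Within the same group, SAG101, a partner of the immune regulator EDS1, read 59.0 and 167.2. PIA1, a protein phosphatase, read 264.5 and 960.2, a 3.63-fold difference, and the protein kinase PTI1-4 read 54.8 and 179.0. Tetraspanins, which organise patches of membrane, split as the IQ-domain proteins did. TET8, known from secreted vesicles, read 501.6 and 1250.2, and TET9 read 4.24 and 47.2 (at least 2.93-fold), whereas TET2 was 2.06-fold lower at 103.3 and 50.1. AR781 (79.9 and 400.4), HHP2 (19.5 and 68.1), the lectin JAL23 (14.4 and 38.6) and B120 (29.0 and 69.0) were the remaining members.

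Several genes of jasmonate synthesis, turnover and defence were past 2-fold on the higher side, and a central factor of the pathway on the lower. JRG21, which takes part in the turnover of jasmonate, read 15.5 on the control, just below the floor, and 202.1 at 3 h, at least 12.6-fold higher. OPCL1, an enzyme of jasmonate synthesis, read 205.4 and 553.9, and ORA47, a factor that activates synthesis genes, read 33.7 and 111.3. GRX480, a glutaredoxin that damps jasmonate responses when salicylate is present, read 46.6 and 232.4. The defensin PDF1.2 stood at 719.2 and 3934, and its close copy PDF1.2b at 1029 and 3730, but the probe set of PDF1.2b can bind transcripts of the other and the 2 values are not independent. Of 7 measured defensins these were the 2 past 2-fold and the family median was −0.17. LCR68 leaned lower within 2-fold, at 1141 and 700.9. MYC4, a central transcription factor of jasmonate signalling, was 3.23-fold lower, at 77.6 and 24.0, while its relative MYC3 lay within 2-fold.

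Genes of other hormones mostly moved singly. In the abscisic acid list 2 of 2 measured genes were 2-fold higher, out of 24 written, with a median of 2.01. LEA4-5, described below, had the larger ratio, and only 1 of the 2 was above the floor on the control. GID1B, a gibberellin receptor, read 43.4 and 144.1, while the other two receptors leaned lower within 2-fold: GID1A read 194.7 and 115.6, and GID1C 32.9 and 18.9. RR16, a response regulator that cytokinin induces, was 3.26-fold lower, at 91.1 and 27.97, and its relative ARR15 read 71.5 and 39.2. The 4 measured Aux/IAA repressors and the 4 GH3 enzymes of auxin conjugation all lay within 2-fold with low signals set to the floor. Only 1 of the Aux/IAA genes was above the floor on the control, so the ratios of the others are lower bounds. The Aux/IAA median was 0.36, or 0.59 and 0.86 with a floor at the 15th and the 45th percentile. AT5G52050, listed in the reference as DTX50, an efflux carrier, was below the floor on the control at 6.77 and read 322.6 at 3 h, at least 20.0-fold higher.

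Among transcription factors, STZ, a zinc-finger repressor that many stresses induce, read 162.6 and 1273, a 7.83-fold difference. The 2 bZIP factors past 2-fold were both regulators of the endoplasmic reticulum stress response: BZIP28 read 107.3 and 441.2, and BZIP60 453.8 and 1228. Their relative BZIP17 read 121.5 and 146.4. The calreticulin gene CRT1b, a chaperone of the same compartment, read 1431 and 915.0, on the lower side within 2-fold. Over the 5 measured genes of the endoplasmic reticulum folding and stress list the median was 0.29 (−0.44 when scaled to the hybridization controls). Of these 5 genes 2 were 2-fold higher and 0 lower. The 2 are BZIP28 and BZIP60 again, so the list adds no other gene past 2-fold. CRT1b was the 1 member with a log2 ratio below 0. Of 6 WRKY factors only WRKY22, an immune regulator, passed 2-fold, at 25.4 and 72.7, and WRKY53 was at 148.9 and 145.6. The AP2-type factor TINY (tny) read 26.2 and 68.2, LBD16, known from root branching, 15.8 and 39.1, and IDD16 29.9 and 63.4.

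Of the 7 named ubiquitin ligase genes past 2-fold, the 4 that were higher were all U-box ligases. PUB19 read 105.2 and 964.6, a 9.17-fold difference. PUB22 and PUB23, close relatives that damp immune and drought responses, read 8.77 and 52.1 (at least 3.24-fold) and 26.9 and 120.4 (4.47-fold). PUB43 read 58.8 and 134.6. The U-box family had 8 measured members, 0 lower ones and a median of 0.84 (0.10 on the hybridization control scale). On the deposited scale that was the highest median of the families with 5 or more measured members. The rank changed with the setting: with median scaling the U-box median was 0.59 and the calmodulin-like median 0.82. The 12 ubiquitin-conjugating enzymes and the 12 ubiquitin-specific proteases, which stand before and after the ligases in the pathway, all lay within 2-fold, with medians of 0.06 and 0.04. The 3 ligase genes that were lower belong to other families: ATL8, a RING type, read 67.0 and 20.2, BRH1, a RING type that responds to brassinosteroid, 448.3 and 166.1, and AFR, an F-box protein of phytochrome signalling, 73.4 and 35.99.

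Of the named genes past 2-fold, 8 were sorted to membrane traffic and the cytoskeleton, all higher. Their families were mostly near level, with medians of 0.10 for NET proteins, 0.05 for prenylated Rab acceptors and 0.03 for the exocyst. NET4B, which ties actin to membranes, read 51.6 and 402.1, a 7.80-fold difference, and NET2D read 20.6 and 46.9, while the 4 NET1 genes lay within 2-fold and NET1B leaned lower at 116.4 and 62.6. PRA1.B4, a prenylated Rab acceptor of the secretory pathway, read 33.1 and 219.1, and PRA8 read 110.0 and 249.0, against 8 relatives within 2-fold. SEC15B, a subunit of the exocyst that tethers secretory vesicles at the plasma membrane, read 105.6 and 341.8, whereas SEC15A, the other gene for that subunit, read 32.6 and 31.3. SEC6, SEC5A, SEC10 and EXO84B of the same complex all lay within 2-fold. SEC1B, of a protein class that controls vesicle fusion, read 72.7 and 191.2.

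The ESCRT machinery, which sorts membrane proteins for degradation and reseals membranes, had a median of 0.49 over 11 measured members (−0.24 when scaled to the hybridization controls), with 2 past 2-fold. ELC read 103.7 and 233.4, and VPS46.2 read 176.7 and 356.2. VPS60.1 stood just inside 2-fold at 50.8 and 101.4, as did VPS20.1 at 88.5 and 176.1. Of 11 autophagy proteins ATG8H alone passed it, at 14.8 and 63.7 (at least 3.96-fold), and the median was 0.03. Its relatives ATG8E and ATG8F, both known to accumulate in starved leaves, read 81.7 and 106.6, and 600.2 and 436.4.

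Cell wall genes were among the strongest at 3 h, and the families differed. All 3 expansin-like A genes were at least 2-fold higher: EXLA1 read 94.5 and 1549.7 (16.4-fold), EXLA2 13.6 and 63.9 (at least 3.97-fold), and EXLA3 4.00 and 54.4 (at least 3.38-fold). Their median log2 ratio was 1.99, which the floor sets because EXLA2 and EXLA3 were below it on the control: it was 3.66 with a floor at the 15th percentile and 0.94 with one at the 45th. Of the 8 alpha-expansins, the classic wall-loosening proteins, 0 were higher and 2 lower, with a median of −0.46. EXPA9 read 58.2 and 27.3, and EXPA8 36.1 and 2.45, at least 2.24-fold lower. The beta-expansin EXPB1 was also lower, at 54.2 and 26.5.

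Xyloglucan endotransglucosylases cut and rejoin the xyloglucan chains of the wall. XTH18 was below the floor on the control (5.44) and read 193.3 at 3 h, at least 12.01-fold higher, and its neighbour on the chromosome, XTH19, read 20.8 and 163.7. XTH16 leaned the other way at 82.9 and 43.6. EXO, a brassinosteroid-responsive gene that promotes leaf growth, read 58.3 and 819.0, a 14.05-fold difference. CSLD2, a cellulose synthase-like gene, read 91.2 and 346.7, and IRX15-L, which acts in xylan formation, 33.8 and 88.4. The 18 measured TBL genes, which acetylate wall polymers, and the 7 glucanases of family 9 all lay within 2-fold.

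Of 36 measured UDP-glycosyltransferases, enzymes that attach sugars to hormones and secondary metabolites, 7 were higher and 2 lower, and subfamilies differed. Of the 36, 30 were above the floor on the control. Subfamily 76E has 4 genes on the annotation, and the 3 measured were higher. UGT76E12 read 1.08 and 232.9 (at least 14.5-fold), UGT76E11 60.5 and 399.5 (6.602-fold), and UGT76E1 1.65 and 65.4 (at least 4.06-fold). UGT76B1, which glucosylates small defence acids, read 22.2 and 62.6, and UGT73D1 22.9 and 49.0. UGT73B5 read 11.8 and 41.8 (at least 2.60-fold), and UGT71B6, an abscisic acid glucosyltransferase, 2.75 and 33.0 (at least 2.05-fold). UGT76E12, UGT76E1, UGT73B5 and UGT71B6 were below the floor on the control, so they count as measured only through the 3 h array. The flavonoid subfamily 78D had a median of −0.93. There UGT78D1 read 149.8 and 55.5, and UGT78D2 187.4 and 98.2. UGT71C4 was the other lower member, at 231.9 and 100.3.

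Of the 7 measured genes in the phenylpropanoid and anthocyanin list 1 was higher and 2 were lower, with a median of −0.55. The higher one was CCR2, a cinnamoyl-CoA reductase of lignin synthesis, at 8.80 and 46.02 (at least 2.86-fold). The lower ones were AT4G14090 at 103.4 and 34.8 (2.97-fold) and AT5MAT, an anthocyanin acyltransferase, at 60.8 and 27.8 (2.19-fold). DFR read 112.8 and 91.4, the chalcone isomerase-like gene CHIL 145.1 and 103.9, and UF3GT 88.6 and 60.5, all within 2-fold. Outside that list HCT, which acts earlier in lignin synthesis, read 268.6 and 698.7.

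Of the 4 measured genes in the cold regulon list 1, COR47, passed 2-fold. SRC2 and LEA4-5, from outside that list, were also higher. SRC2, named for a cold-regulated soybean gene, read 355.2 and 2918, an 8.21-fold difference. COR47, a dehydrin, read 1288 and 3852, and LEA4-5, a small protective protein of drying cells, 31.5 and 209.8. COR15A and COR15B, which protect chloroplast membranes during freezing, lay within 2-fold at 3969 and 4581, and 2370 and 2538. LTI30, the remaining member of the list, read 2846 and 4961, also within 2-fold. All 4 members had a log2 ratio above 0, with a median of 0.50, or −0.23 when scaled to the hybridization controls.

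The metabolic genes that were higher touched several routes. PGM, a phosphoglycerate mutase family gene in the reference, read 5.32 and 102.6 (at least 6.38-fold). BGLU25, a beta-glucosidase, read 445.9 and 1600.2, and 12 other beta-glucosidases were within 2-fold. HEMA2, which starts tetrapyrrole synthesis, read 64.3 and 214.8, and ATMDAR2, which regenerates ascorbate, 112.8 and 325.2. Of 8 aldehyde dehydrogenases ALDH7B4 passed 2-fold, at 278.1 and 709.8. The mitochondrial electron carriers CYTC-2 and NDB2 read 169.6 and 394.1, and 303.4 and 662.1.

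Lipid genes included CCT2, of phosphatidylcholine synthesis, at 146.8 and 296.2, ATCES1, a ceramidase, at 174.3 and 355.0, and HOS3-1 at 19.0 and 65.2. On the lower side, TSC10B, of sphingolipid synthesis, read 36.2 and 4.28, at least 2.25-fold lower. CYP78A9, a cytochrome P450 known from organ growth, was the 1 of 14 measured P450 genes past 2-fold, at 54.5 and 21.1. The starch branching enzyme SBE2.2 read 183.0 and 84.9, and the sucrose-phosphate synthase ATSPS4F 254.1 and 139.2, within 2-fold. The lower metabolic genes further included FMO (84.0 and 36.7) and AOP1 of glucosinolate synthesis (34.9 and 11.5).

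Transporters went both ways. SWEET2, a sugar carrier of the vacuole membrane, read 42.2 and 212.9, a 5.05-fold difference, and was the 1 of 12 SWEET genes past 2-fold. SWEET11 and SWEET13, which export sucrose from leaf cells, leaned lower at 467.3 and 253.5, and 349.2 and 218.9. GTR1, a glucosinolate importer, read 134.6 and 488.2, but GTR2, its partner, 299.1 and 207.5. In the same family AT3G21670, listed as NPF6.4, was 3.23-fold lower, at 344.6 and 106.6, and AT1G68570, listed as NPF3.1, 3.19-fold lower, at 565.9 and 177.2. TMT3, a sugar carrier, read 18.3 and 45.2, and SFP2, a sugar porter, 36.04 and 15.3.

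**Figure D3:**
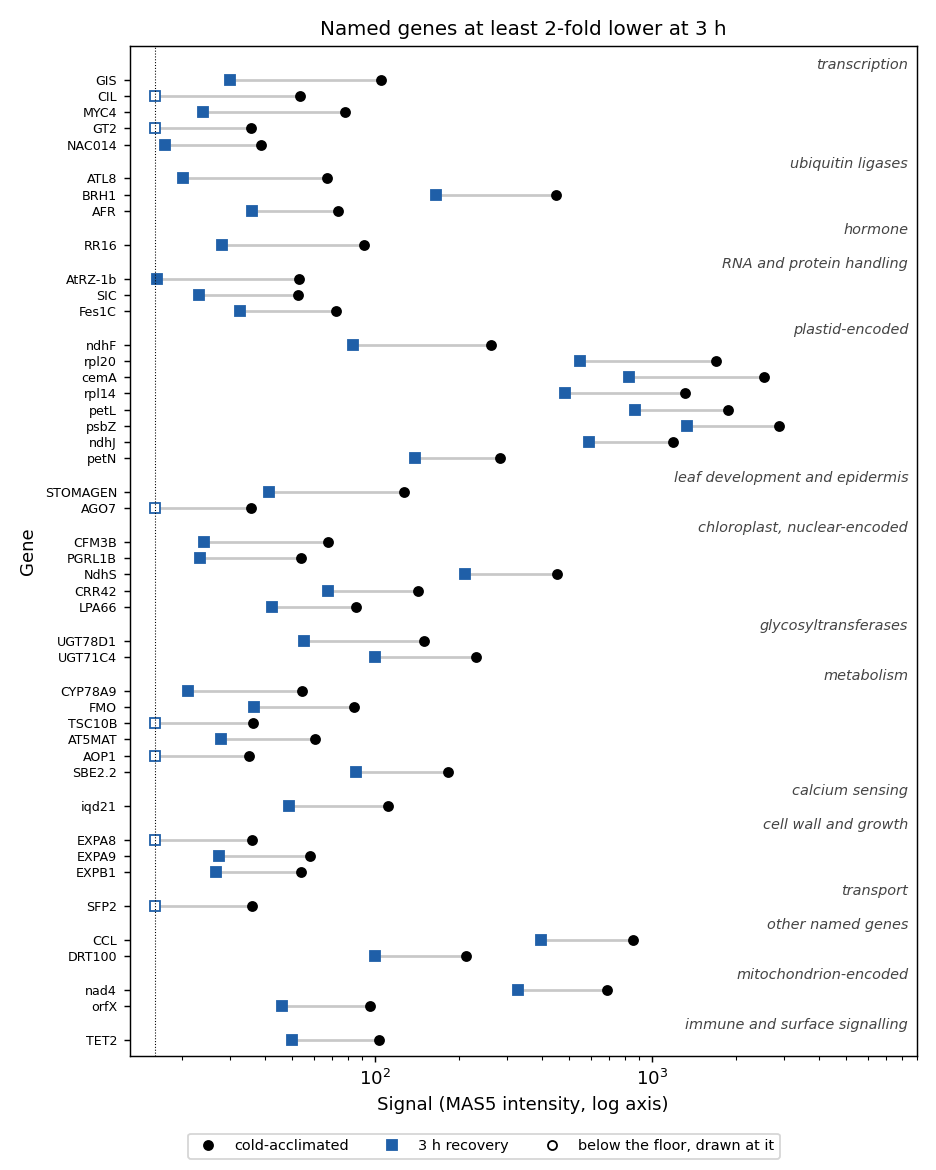
Signal on a log axis of the 45 named genes at least 2-fold lower at 3 h, on the cold-acclimated array (black circles) and at 3 h (blue squares), grouped by role. Open squares are 3 h signals below the floor of 16.1, drawn at the dotted line that marks it. GIS shows the largest difference, 3.504-fold.

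Named genes on the lower side differed by smaller folds, and a few of them act in leaf development. GIS, a zinc-finger factor that promotes hair-cell formation, read 105.2 and 30.02, a 3.504-fold difference and the largest among them. STOMAGEN, a secreted peptide that promotes stomata, read 126.9 and 41.4, which is 3.07-fold lower. AGO7, which acts in small RNA control of leaf form, read 35.7 and 12.4. The hair-cell repressor TRY read 20.5 and 1.49, the latter below the floor, so no fold of 2 could be reached. AT1G30260, listed as the MADS-box gene AGL79, read 123.4 and 53.6. AT5G61590, listed as DEWAX, a repressor of wax synthesis, read 331.7 and 53.9, 6.15-fold lower.

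Other lower genes act in the chloroplast or on its genes. CIL read 53.6 and 11.4, at least 3.33-fold lower, and CFM3B, which splices plastid introns, 67.7 and 24.2. PGRL1B, of cyclic electron flow, read 53.8 and 23.2, and NdhS, a subunit of the chloroplast NDH complex, 451.8 and 211.7. CRR42 and the plastid RNA-editing protein LPA66 read 142.5 and 67.7, and 85.3 and 42.4. In all, of 17 measured nuclear genes for NDH subunits, assembly and plastid RNA editing 3 were lower and 0 higher, with a median of −0.38. The lowest log2 ratio among the 17 was −1.09, so all 3 lay close to the threshold and the count depends on it. Under median scaling 30 of the 45 lower named genes stayed past 2-fold. The 6 measured photosynthesis genes outside that list lay within 2-fold, for example LHCB4.2, a light-harvesting protein, at 1965 and 1330.

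Plastid-encoded transcripts had a level median, −0.02 over 69 measured probe sets, and 60 lay within 2-fold. Past 2-fold were 8 lower and 1 higher, against 3.89% lower and 5.73% higher among all genes. At this threshold lower members were more frequent, and higher ones less frequent, than among all genes. Several of the 8 lay close to the threshold: petN and ndhJ were each 2.02-fold lower, psbZ 2.15-fold and petL 2.16-fold. The 8 lower ones were spread over functions: ribosomal protein genes rpl20 (1698 and 547.3) and rpl14 (1317 and 483.8), the envelope gene cemA (2530 and 823.0), the NDH genes ndhF (260.9 and 83.1) and ndhJ (1194 and 590.0), and the small photosynthetic subunits petL (1873 and 865.2), petN (281.8 and 139.8) and psbZ (2863 and 1330). The ATP synthase transcripts atpB at 4854 and 5749 and atpE at 4719 and 5158, lay within 2-fold, and psbN was the higher one at 25.2 and 52.8. Mitochondrial transcripts went both ways: nad4 read 687.8 and 326.5, and orfX 95.9 and 46.21, while nad1 read 28.3 and 68.8 and nad5 21.4 and 43.1.

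Further named genes past 2-fold belonged to smaller sets. AtRZ-1b, an RNA-binding protein, read 53.1 and 16.3, SIC, of microRNA processing, 52.5 and 23.2, and Fes1C, a co-chaperone, 72.2 and 32.5. GT2, a trihelix factor, was at 35.6 and 9.35, and NAC014 at 38.6 and 17.5. CCL read 849.6 and 395.8, and DRT100 211.9 and 99.5. On the higher side GEK1 read 47.7 and 98.9. GI, a clock gene whose level follows the hour of day, was within 2-fold at 659.2 and 384.9.

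**Figure D4:**
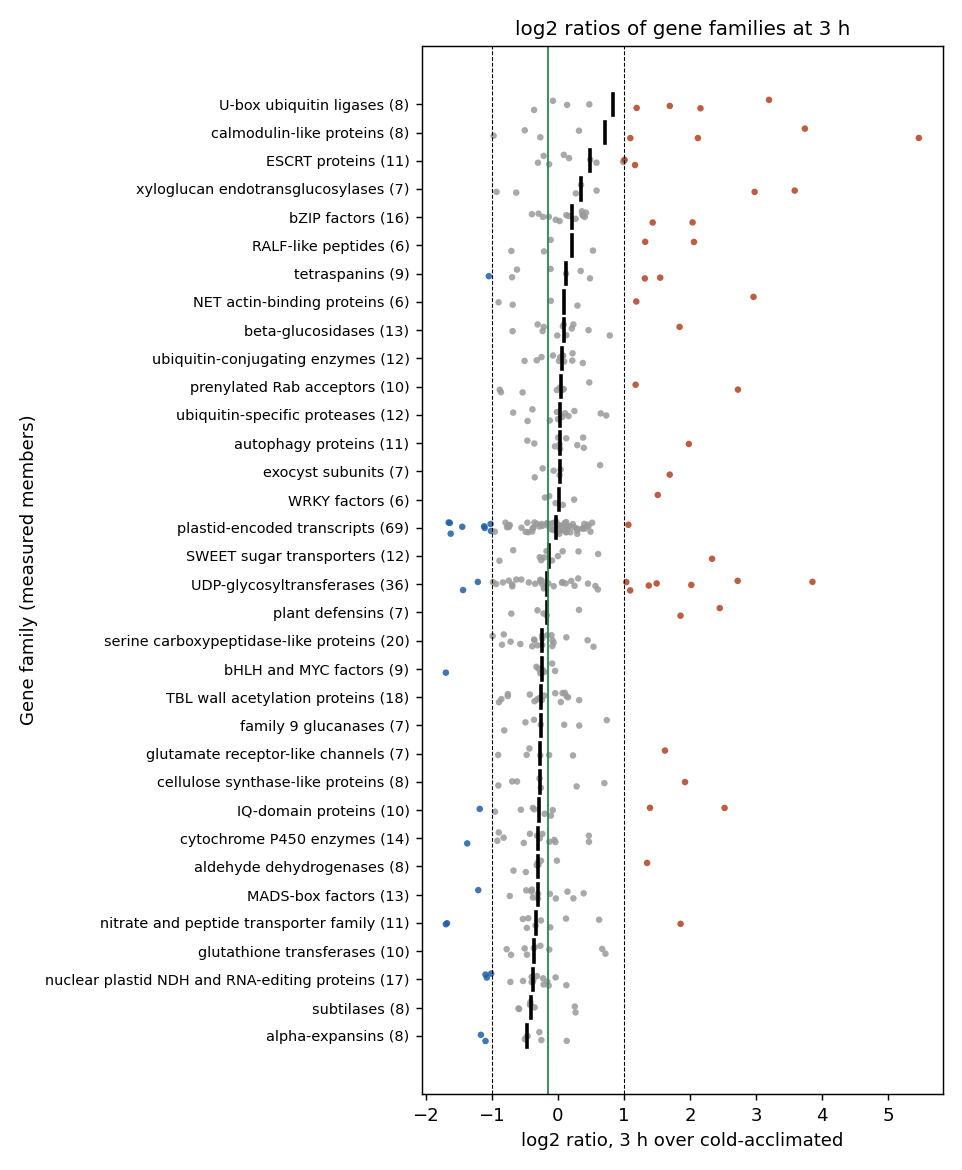
log2 ratio of 3 h over cold-acclimated for each measured member of 34 gene families with 5 or more measured members, ordered by median (black bars). Red points are at least 2-fold higher, blue at least 2-fold lower and grey within 2-fold, dashed lines mark 2-fold and the green line the median of all genes, −0.14. U-box ligases (0.84, or 0.59 with median scaling) and calmodulin-like proteins (0.71, between 0.19 and 1.66 with another floor) have the highest medians. Most families hold a few members far from relatives that stay near 0.

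In the families drawn, the members past 2-fold were mostly few among relatives that stayed near the median of all genes. Serine carboxypeptidase-like proteins (20 measured), subtilases (8) and glutathione transferases (10) had 0 members past 2-fold in either direction. Their medians, −0.24, −0.41 and −0.36, lay a little below that of all genes. Of 28 genes listed as known to accumulate in darkness and low energy 15 were measured. These 15 were close to level, since 1 of them, ATG8H, passed 2-fold and the median was 0.03.

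Genes that lie side by side on a chromosome were sometimes higher together. Of 3279 pairs of adjacent protein-coding genes with both members measured, 23 had both members at least 2-fold higher, 9 both lower and 13 opposite. Of the measured neighbours of any gene 6.28% were 2-fold higher, of the neighbours of a 2-fold higher gene 11.2% (46 of 412), and of those of a 4-fold higher gene 16% (20 of 125). The named pairs were EXLA3 with EXLA1 and XTH18 with XTH19, which are relatives, and CML38 stood beside AT1G76640, also a relative. BZIP60 and its neighbour AT1G42980 were 2.71-fold and 2.55-fold higher. Probe sets that bind a neighbour's transcript were not looked for.

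Genes past 2-fold in either direction had shorter median spans in the reference (RefSeq, TAIR10.1) than genes within 2-fold. The median span from start to end of the gene was 2306 bases for the 8297 genes within 2-fold. It was 1837 for the 162 genes at least 4-fold higher and 2049 for the 365 genes 2-fold to 4-fold higher. On the lower side it was 2016 for the 335 genes 2-fold to 4-fold lower and 1687 for the 15 genes at least 4-fold lower. In the brightest of 3 signal classes the medians were 2099 for genes at least 2-fold higher, 2264 for those within 2-fold and 1698.5 for those at least 2-fold lower. In the middle class they were 1946, 2541 and 2016. In the dimmest class they were 1832, 2109 and 2112, so the lower genes did not stand apart there. The part of signal or gene class in these spans was not tested.

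By 24 h of recovery, on the remaining array, 79 of the 83 higher named genes had a signal below that at 3 h, and 58 were within 2-fold of the control. CML38 stood at 117.4, PUB19 at 98.7 and XTH18 at 15.72. The 4 exceptions with a still higher signal at 24 h were JRG21 at 417.5, ATG8H at 123.9, ALDH7B4 at 1880 and psbN at 54.3. Of the 45 lower named genes 32 had a signal above that at 3 h, and 20 were within 2-fold of the control. Among the 32, RR16 at 208.2, ATL8 at 158.7, EXPA8 at 280.4 and CCL at 3157 also stood above the control. Their control signals were 91.1, 67.0, 36.1 and 849.6. These counts share the 3 h and control arrays with the ratios that chose the genes, so a return toward the control is in part built into them.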

How the data were processed

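RNA from the aerial parts of Col-0 plants was measured on 3 Affymetrix ATH1 arrays, 1 per group. The deposited values are linear intensity for each probe set. The submitters' processing notes name MAS5, with settings not given in the sources used here. Signals below 16.1 were set to it, and the log2 ratio of the deposited intensities (3 h over cold-acclimated) was taken with no further scaling. The 64 control probe sets stayed out. With 1 array per group no test was made and no p-value is given. Of 22746 probe sets 13513 had 1 gene on the platform annotation, 503 several and 8730 none. Where a gene had more than 1 probe set, the brightest was used.

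The named-gene rule took the 40 highest and 40 lowest ratios, the 20 brightest past 2-fold in each direction, 10 in each direction with the other array below the floor, the 10 brightest of all and the leading members of each list. Every gene with a name past 2-fold was named beside that rule, chosen after its values were seen. Members and lists were chosen with earlier results of these data known, and the 42 family lists were rewritten after values were seen, since the earlier patterns took in wrong genes. A planned promoter motif search was not run, for want of promoter sequence here. Python 3.11.15, numpy 2.4.6, pandas 2.3.3, scipy 1.17.1, statsmodels 0.14.6 and matplotlib 3.10.9 were used. Precision is limited by the number of arrays.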

Additional observations from a re-analysis of the deposited data

Results flagged for a closer look

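Signals outside the Arabidopsis probe sets were higher at 3 h than on the control in 3 cases. The 18 bacterial hybridization controls read higher at 3 h with a median of 1.66-fold and a range from 1.11 to 3.36. The probe set for 25S ribosomal RNA read 238.3 on the control and 444.3 at 3 h, a 1.86-fold difference. The 5′ probe set of a ubiquitin control read 1236 and 2570, a 2.08-fold difference, while its 3′ probe set read 3423 and 3515. No sample could be called far from its group, since each group has 1 array.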

How the results depend on the processing

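Of 10 alternatives, scaling to the hybridization controls gave 438 probe sets 2-fold higher and 5310 lower, so that 7.62% of those past 2-fold were higher, against 60.6% as deposited (1024 and 666). It also moved the median of all measured ratios to −0.82. A floor at the 15th percentile (4.3) gave 1654 and 1436, a floor at the 45th percentile (33.3) gave 403 lower, and a pseudocount of 16 gave 393 lower. The loess correction gave 1233 and 452, with 73.2% higher. Of the 83 higher named genes 83 stayed past 2-fold under median, loess and reference gene scaling, 82 under quantile normalization, 67 with the pseudocount, 63 with the raised floor and 37 when scaled to the hybridization controls. Of the 45 lower ones 30, 29, 38, 39, 23, 30 and 45 did so in the same order of settings. Median scaling gave 68.9% higher, quantile normalization 65.0%. No paired analysis was possible because each group has 1 array, and all carry the replicate number 3. Signals near the floor limit folds to lower bounds.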
